A study of Sus scrofa with 12 samples.

Results

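Across the endometrium (uterine lining) of pregnant pigs, 11343 distal regions carried a C/EBP-β peak summit in day 12 replicates 2 and 3 and in day 15 replicate 1, and in none of the other 3 libraries. They were chosen by joining summits of all 6 C/EBP-β libraries that lay within 200 bp of each other on the 18 autosomes and X, which gave 98994 regions. Of these, 12704 had exactly this combination of libraries, and 11343 of the 12704 had a midpoint more than 2 kb from either end of every protein-coding gene. The choice uses the summits themselves, so presence in the lists, the scores and the distance limit are described here and not tested.

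The study immunoprecipitated chromatin of endometrial tissue from pregnant pigs with an antibody against C/EBP-β (ChIP) and sequenced it, with 3 libraries on day 12 of pregnancy and 3 on day 15, and 6 input samples that were not analysed here. The labels give no breed, genotype or treatment, and whether replicates came from separate animals is not stated. The material is whole tissue, so epithelium, stroma, vessels and immune cells may all contribute, and a site used in fewer cells cannot be told apart from a site used less in every cell. Summit lists hold no transcript levels, so the tissue label was not checked against markers.

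The product of CEBPB, C/EBP-β, belongs to the bZIP transcription factors and binds DNA as a dimer with itself or with related factors. It is known for roles in inflammation, the acute phase response and adipocyte differentiation, and in the uterus it takes part in the response of the stroma to steroid hormones. Distal regulatory elements, or enhancers, lie away from promoters and often act in particular cell types. In the pig, conceptuses elongate and release oestrogen and an interleukin 1 protein around day 12, and they are attaching to the uterine epithelium by day 15.

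The 3 libraries that define the set were the ones with the most summits. Their lists held 33274 summits for day 12 replicate 2, 57694 for day 12 replicate 3 and 70105 for day 15 replicate 1, against 6556 to 16519 for the other 3. The peak names of the same 3 lists carry no directory path and those of the other 3 do. Length of list and this difference in naming cannot be told apart, and whether the libraries were processed differently is not stated. Day 12 supplies a pair of the 3 libraries and day 15 a single one, which leaves no comparison of days within the set. Read numbers are absent from the lists, and the depth of each library is unknown. For day 12 replicate 1 and day 15 replicate 3, both among the shorter lists, the sample part of the peak names lacks the protein. Without those 2 libraries the set would hold 13082 regions. Without day 12 replicate 2, the shortest of the 3 long lists, it would hold 20923 (27.5% of the distal regions), and without day 15 replicate 1 it would hold 15509 (27.7%).

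Among all 78952 distal regions, 14.4% had this combination of libraries. It was the third most frequent combination, after day 15 replicate 1 alone (23076 regions) and day 12 replicate 3 alone (13382). Of the 20 combinations of 3 libraries it was the most frequent, and the next one held 772 regions. The opposite combination, a summit in the 3 shorter lists and none in the 3 longest, was found in 9 distal regions. With the 6556 highest-scoring summits of every library, so that all lists were equally long, the combination fell to 503 of 11761 distal regions (4.28%). It was still the most frequent of the 20, ahead of one with 375 regions, and the opposite combination rose to 112. Near gene ends the combination was less common, at 6.79% of the 20042 regions within 2 kb of an end. Each library had its own share of sites in the set, which made up 41.2% of the distal regions of day 12 replicate 2, 23.7% of those of day 12 replicate 3 and 20.3% of those of day 15 replicate 1.

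**Figure D1:**
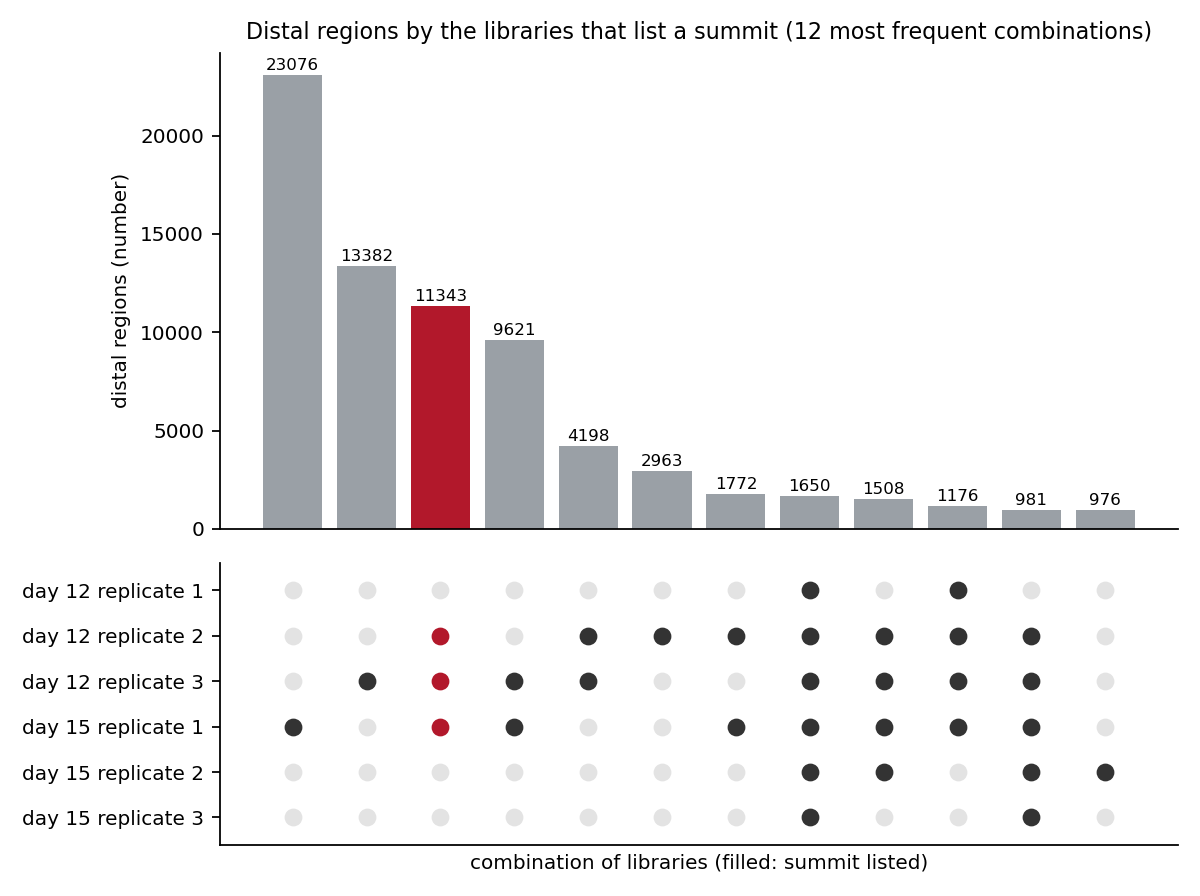
Number of distal regions (vertical axis) for the 12 most frequent combinations of libraries, with filled dots below each bar marking the libraries that list a summit. The red bar is the combination described here, with 11343 regions, and it is the tallest of the bars for more than 1 library.

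At the limit of 2 kb, the nearest regions inside the set lay 2000.5 bp from an end of BCHE, which encodes butyrylcholinesterase, and 2001.5 bp from an end of GDI2, a regulator of RAB GTPases. Those that just failed lay 2000 bp from an end of LOC110261744 and 1998 bp from an end of ARHGAP21. The BCHE region had scores of 4.53, 4.53 and 25.9 in day 12 replicates 2 and 3 and day 15 replicate 1, and the GDI2 region 3.86, 6.62 and 4.05. Outside the set, the LOC110261744 region had 6.26, 18.5 and 74.2, and the ARHGAP21 region 8.71, 21.4 and 18.4. In every list both regions outside ranked above the GDI2 region.

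The authors' score of a summit (−log10 p or q) grows with depth, so it is used here to rank summits within 1 list. Within their lists, the regions of the set were of middle to upper rank. Their median percentile was 53.1 in day 12 replicate 2, 70.4 in day 12 replicate 3 and 70.1 in day 15 replicate 1. The distal regions shared by all 6 libraries ranked higher, at medians of 93.3, 94.3 and 97.3 in the same order, and the distal regions of a single library lower, at 23.9, 27.3 and 30.6. The quartiles of the set were wide, from 31.0 to 72.4 in day 12 replicate 2, from 50.3 to 83.9 in day 12 replicate 3 and from 47.8 to 83.9 in day 15 replicate 1. Scores ran from 1.32 to 54.5, from 1.33 to 114 and from 1.31 to 150.0 in these 3 libraries, with medians of 7.13, 11.7 and 14.3. By rank the set spans almost the whole range of its lists, from the calling threshold to the top percentiles. By score it does not, because the highest scores of the 3 lists were 172, 255 and 497. In all 3 lists at once, 146 of the 11343 regions (1.29%) were above percentile 90, and 8946 (78.9%) were above it in none. Of the set, 316 regions (2.79%) had their summits among the 6556 highest-scoring of all 3 lists, and 8239 (72.6%) in none.

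**Figure D2:**
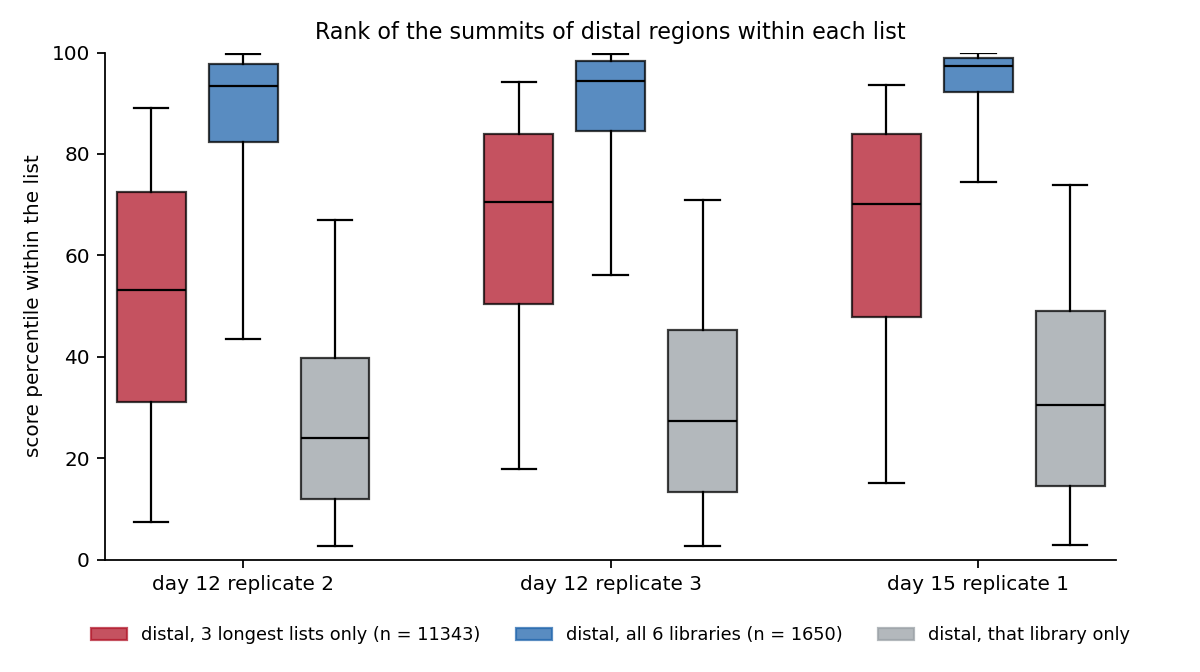
Score percentile within each of the 3 longest lists (vertical axis) for distal regions of these lists only (red), of all 6 libraries (blue) and of the named library only (grey). Boxes give quartiles and median, whiskers the 5th to 95th percentile, and in every list the red median (53.1, 70.4 and 70.1) lies between the grey and the blue one.

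Scores of the same region in different libraries were loosely related. Across the 11343 regions, Spearman's rho was 0.54 between day 12 replicates 2 and 3, 0.34 between day 12 replicate 2 and day 15 replicate 1, and 0.36 between day 12 replicate 3 and day 15 replicate 1. Over the 1650 distal regions shared by all 6 libraries the same pairs gave 0.72, 0.66 and 0.80. These are descriptions, since regions of the same 3 libraries are not independent samples and both sets were chosen by presence in the lists.

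Summits of the libraries fell close to each other within a region. Every region of the set held exactly 3 summits, 1 per library, over a median span of 51 bp (quartiles 29 and 85 bp, longest 334 bp). The median offset between the summits of a pair of libraries was 29 bp for day 12 replicates 2 and 3, 29 bp for day 12 replicate 2 and day 15 replicate 1, and 29 bp for day 12 replicate 3 and day 15 replicate 1. Between 37.8% and 38.9% of the regions had summits within 20 bp of each other, depending on the pair. Distal regions of all 6 libraries were tighter, with median offsets of 15, 13 and 13 bp. Regions near gene ends with the same combination of libraries were slightly looser, at 32, 33 and 32 bp. The joining distance of 200 bp limits all these values.

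Few of the regions had a listed summit of a shorter list within 1 kb, and the rule itself excludes any within 200 bp. Signal below the calling threshold is not in the lists, so weak signal of the shorter libraries at these sites could not be read. The nearest summit of any of the 3 shorter lists lay at a median of 26.7 kb (quartiles 8.98 and 68.9 kb). It was within 500 bp for 95 regions (0.838%) and within 1 kb for 284 (2.50%). Within 5 kb it was found for 1785 regions (15.7%) and within 10 kb for 3077 (27.1%). By library, the median distance was 79.4 kb to a summit of day 12 replicate 1, 35.0 kb to one of day 15 replicate 2 and 55.8 kb to one of day 15 replicate 3. The order follows the lengths of those lists. Regions of the set lay within 10 kb of a region shared by all 6 libraries in 4.39% of cases, and distal regions of a single library in 5.18%.

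In placement along the genome the regions differed from other distal regions by a few percentage points. Inside protein-coding genes lay 6395 of the 11343 (56.4%, 95% exact binomial interval 55.5% to 57.3%, which covers counting error only), against 55.1% of the distal regions with other combinations and 51.4% of those shared by all 6 libraries. The median distance to the nearest protein-coding gene end was 29.9 kb (quartiles 10.7 and 76.2 kb), against 27.0 kb for distal regions of all 6 libraries and 32.8 kb for those of 1 library. More than 50 kb from any gene end lay 35.8% of the set and 33.7% of the distal regions of all 6 libraries, and more than 200 kb lay 8.06% and 8.42%. Long non-coding RNA (lncRNA) genes held 1028 of the regions (9.06%), 912 of them outside protein-coding genes. Within 2 kb of an lncRNA gene end lay 2.66% of the set, 3.15% of the distal regions with other combinations and 4.79% of those shared by all 6 libraries. The gene table gives only the start and end of each gene, so exons, introns and strand were not resolved.

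**Figure D3:**
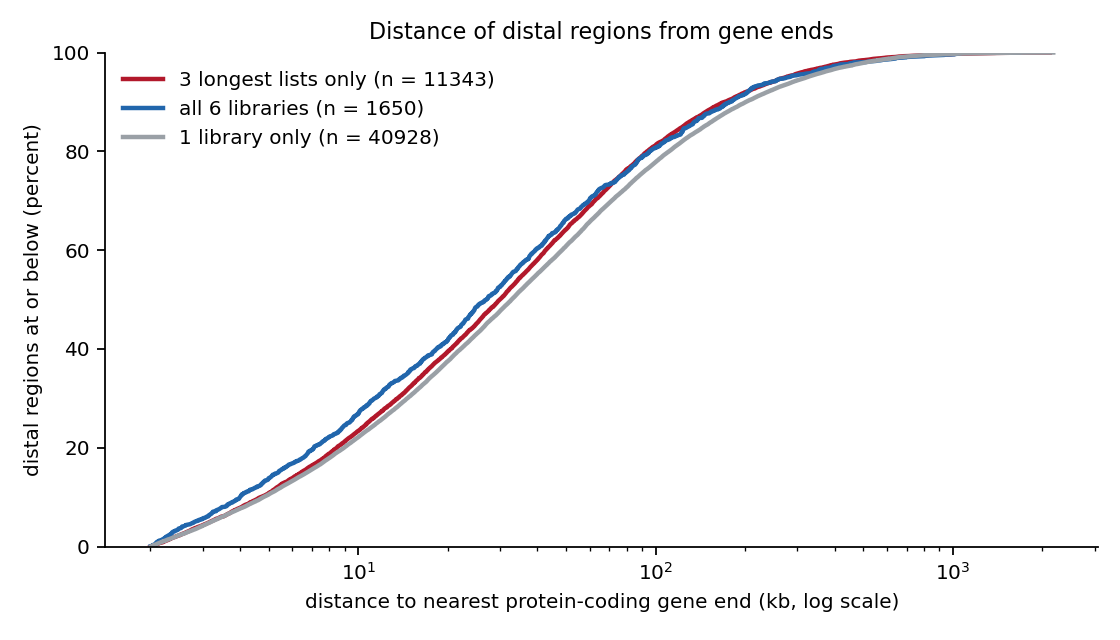
Cumulative percent of distal regions (vertical axis) by distance to the nearest protein-coding gene end in kb (horizontal axis, log scale) for regions of the 3 longest lists only (red, median 29.9 kb), of all 6 libraries (blue, median 27.0 kb) and of 1 library (grey, median 32.8 kb). The 3 curves run close together at all distances.

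The share of distal regions with this combination varied little between chromosomes. It ran from 13.5% on chromosome 11 to 15.2% on chromosome 3 among the autosomes, and it was 11.9% on X (223 of 1880). Chromosome 1, with 1274, held the most regions of the set. Most regions stood alone: 8590 (75.7%) had no other region of the set within 10 kb, 1026 pairs were found, and 212 clusters of 3 or more held 701 regions (6.18%). The number of clusters depended on the lists: it was 771 without day 12 replicate 2, 470 without day 15 replicate 1, 76 and 27 with scores of at least 5 and 10, and 0 with equal lists.

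The regions farthest from any protein-coding gene lay in gene deserts of chromosomes 6 and 13. The farthest was at chromosome 6, 123500082 to 123500127, 2119 kb from an end of CELF4, with scores of 4.89, 23.1 and 55.9 in day 12 replicates 2 and 3 and day 15 replicate 1. Another desert region lay at chromosome 6, 123489224 to 123489234, with scores of 7.55, 5.79 and 9.68, and it ranked near the middle of the lists, at percentiles of 57.2 in day 12 replicate 2 and 57.7 in day 15 replicate 1 and somewhat lower in day 12 replicate 3. On the far side of the same desert, a region at chromosome 6, 123903414 to 123903441 scored 5.40, 43.3 and 4.52 and ranked high in day 12 replicate 3, at percentile 96.1 against 38.6 and 24.3 in the other 2 lists. On chromosome 13, the region at 187443901 to 187443956 scored 29.1, 55.7 and 2.38, and it ranked high in both day 12 libraries (percentiles 95.6 and 97.8) and near the bottom in day 15 replicate 1 (4.70). Its neighbour at 187465045 to 187465115 had 3.62, 13.0 and 5.95. The nearest lncRNA gene ends were 57.9 to 131 kb away from these 5 regions.

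The 10 regions with the highest mean percentile over the 3 lists had mean percentiles of 97.2 to 99.0, and 2 of them lay inside a protein-coding gene. The first, at chromosome 9, 50858658 to 50858727, lay 4.13 kb from an end of LOC106504911 and had scores of 53.6, 68.0 and 150.0 in day 12 replicates 2 and 3 and day 15 replicate 1. THADA held the second (chromosome 3, 96921472 to 96921488), 49.3 kb from its nearer end, with scores of 40.9, 81.7 and 149. Each of these is in the top 2% of all 3 lists although the shorter lists held no summit within 200 bp. The third lay 70.5 kb from ZUFSP but only 0.148 kb from the end of an lncRNA gene (chromosome 1, 45084257 to 45084303, scores 42.2, 58.8 and 140).

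MSX1 encodes a homeobox factor with a role in uterine receptivity and implantation, and its region lay 86.8 kb away at chromosome 8, 5719120 to 5719152 (scores 43.6, 84.2 and 85.3). EMCN encodes endomucin, a sialomucin of the endothelium, and its region lay 24.6 kb away at chromosome 8, 120252591 to 120252631 (35.0, 45.6 and 123). DYRK2, a kinase gene, had its region 40.8 kb away at chromosome 5, 32006801 to 32006821 (35.1, 48.0 and 138). KLF12, a Krüppel-like factor gene, had one 45.2 kb away (chromosome 11, 46700649 to 46700699, scores 26.1, 68.9 and 139). These 4 regions were at percentiles of 94.5 or more in each list, which follows largely from their choice by mean percentile over the same lists. The remaining regions of the 10 lay 11.4 kb from PPT1, a lysosomal thioesterase gene, inside TAF1B, which encodes a subunit of the RNA polymerase I machinery, and 29.6 kb from ADAMTS20, a secreted protease gene. Their scores were 35.4, 69.8 and 84.4 for PPT1, 37.6, 66.3 and 71.3 for TAF1B, and 38.9, 47.7 and 85.9 for ADAMTS20.

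Of 19484 protein-coding genes, 3484 (17.9%) held at least 1 region of the set, 1388 at least 2 and 198 at least 5. Genes with a region were long, with a median of 91.1 kb against 14.9 kb for genes without. Across genes Spearman's rho between gene length and number of regions was 0.48, a description over genes, which are not independent replicates. The rule itself favours long genes, because a region more than 2 kb from every gene end cannot lie in a very short gene. Over all gene bodies the density was 0.564 regions per 100 kb.

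MECOM, which encodes the zinc finger transcription factor EVI1, held the most regions, 23 in 583 kb on chromosome 13 (3.95 per 100 kb). They made up 23.7% of its 97 distal regions, against 14.4% of all distal regions, and none of the 97 was shared by all 6 libraries. Genes picked for many regions of the set tend to have a high share by that choice. Their mean percentiles ran from 22.9 to 87.5 with a median of 50.4. The highest, at 107982092 to 107982123, had scores of 17.6, 19.2 and 41.0 in day 12 replicates 2 and 3 and day 15 replicate 1. The next, at 108089774 to 108089783, scored 8.07, 16.9 and 112 and ranked highest in day 15 replicate 1, at percentile 98.1 against 59.9 and 81.0. Of the 6 libraries, 5 listed a summit near an end of MECOM (within 2 kb).

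ARID5B, an AT-rich interaction domain protein that works with a histone demethylase and is known from adipocyte differentiation, held 18 regions in 190 kb on chromosome 14. This was 9.48 per 100 kb, the highest density among the 10 genes with the most regions. Its 70 distal regions included 2 shared by all 6 libraries, and all 6 libraries listed a summit near its ends. The highest regions of the set there were at 65501621 to 65501657 (scores 17.5, 20.7 and 65.9) and 65505119 to 65505131 (12.1, 39.2 and 45.3). PARD3, a gene of epithelial cell polarity, also held 18 regions, spread over 632 kb. The highest was at chromosome 10, 56986387 to 56986396, 18.3 kb from an end, and it scored 18.2, 33.0 and 21.3, at percentiles of 88.6, 93.3 and 79.7. RAD51B, a DNA repair gene, held 19 regions in 709 kb, with percentiles from 8.37 to 81.7, beside 5 distal regions of all 6 libraries.

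FAM13A held 14 regions in 306 kb, and 33.3% of its 42 distal regions belonged to the set, against 14.4% of all distal regions. Its highest region (chromosome 8, 130147921 to 130147969) had scores of 25.3, 34.1 and 76.2. NAV2 held 13 regions, and AKAP13, MAP3K5, PDE4D and PSD3 held 12 each. AKAP13 encodes an anchor of protein kinase A, and its highest region (chromosome 7, 88016435 to 88016484) had scores of 31.2, 41.8 and 22.8, at percentiles of 96.3, 95.8 and 81.0. MAP3K5, the stress kinase ASK1, had the highest share of the 10 genes, with 35.3% of its 34 distal regions in the set (14.4% over all distal regions). The region at chromosome 1, 27523844 to 27523901 inside it had scores of 36.3, 43.8 and 74.7. In PDE4D, a cyclic AMP phosphodiesterase gene, the 12 regions were thinly spread over 1509 kb, and the highest (chromosome 16, 38027880 to 38027891) scored 38.6, 63.1 and 42.1. Near the ends of NAV2, PDE4D and PSD3 no library listed a summit.

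**Figure D4:**
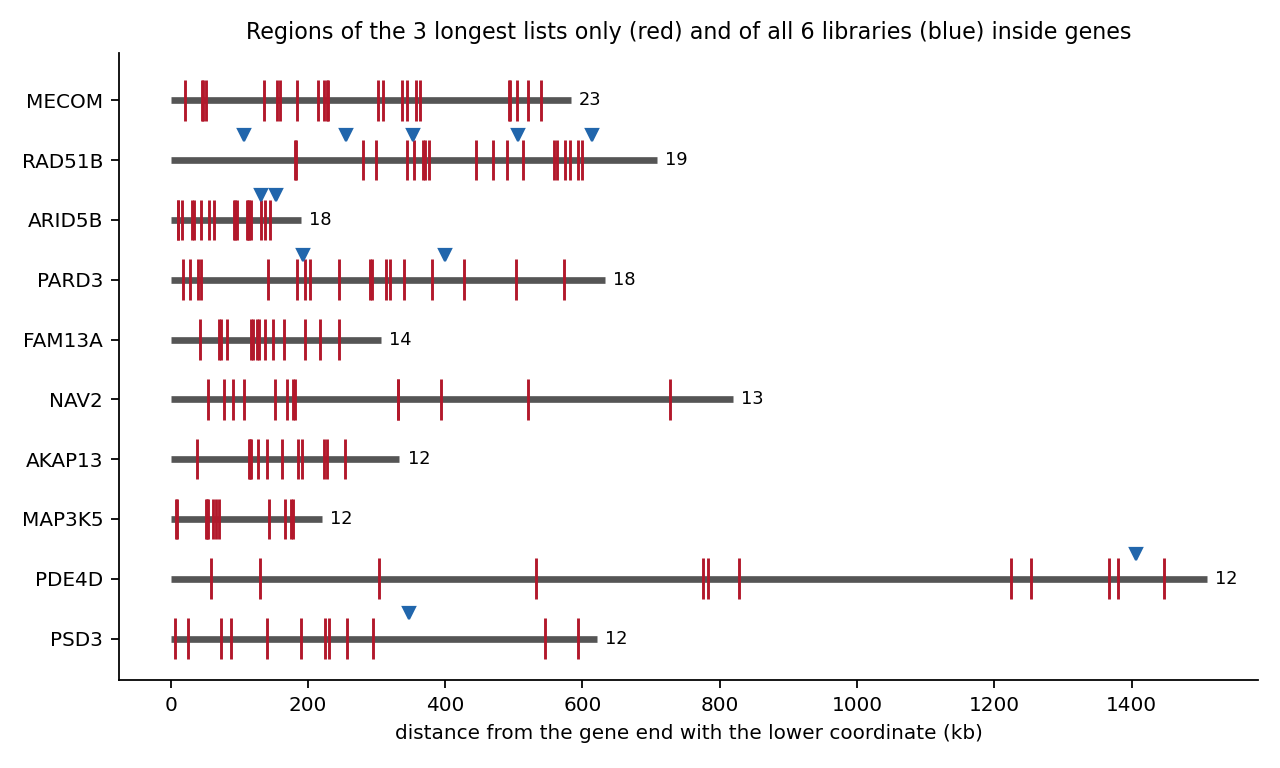
The 10 protein-coding genes with the most regions of the set, drawn to scale as bars by distance in kb from the gene end with the lower coordinate. Red ticks mark the regions of the 3 longest lists only, counted at the right (23 in MECOM, 12 in PSD3), and blue triangles distal regions of all 6 libraries, which were found in RAD51B, ARID5B, PARD3, PDE4D and PSD3.

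Clusters were small. The 3 largest held 6 regions each, and the shortest of them lay inside MAP3K5 (chromosome 1, 27431855 to 27450987), where 6 regions fell within 19.1 kb with mean percentiles from 13.7 to 82.8. Another 6 lay within 31.0 kb near LOC110257255 on chromosome 16 (46990070 to 47021107), with percentiles from 23.4 to 90.1. The third lay inside MYO1D, an unconventional myosin gene, on chromosome 12 (42192148 to 42226011), where the percentiles were more even, from 47.6 to 84.4. PRR5L, which encodes a protein bound to the mTORC2 kinase complex, held 5 regions within 11.7 kb (chromosome 2, 24746982 to 24758699). A further 5 lay within 12.7 kb beside PSMA6, a proteasome gene, on chromosome 7 (64555072 to 64567801). None of these 5 clusters held a region shared by all 6 libraries, and other combinations added 1 to 3 distal regions to each.

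A region of the set lay inside or within 50 kb of 46.2% of all protein-coding genes. Of 19 gene lists, 16 on the tissue and its signals and 3 controls, neuronal and housekeeping genes were below this share. The other 17 were above it, interferon response genes by very little (46.4%), and they include the hepatocyte control. The shares do not by themselves set the combination of libraries apart, because any distal region at all lay inside or within 50 kb of 88.6% of genes. Counted over all gene windows, regions of the set were 14.5% of the distal regions, and in the 19 lists this share ran from 9.81% to 21.6%. In these shares a region in the windows of several genes was counted once for each gene. Genes of a list can share a region, and long genes have wide windows, so the median gene length is given where it departs far from the 20.7 kb of all genes. The named members were those with the most regions and do not stand for their lists.

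**Figure D5:**
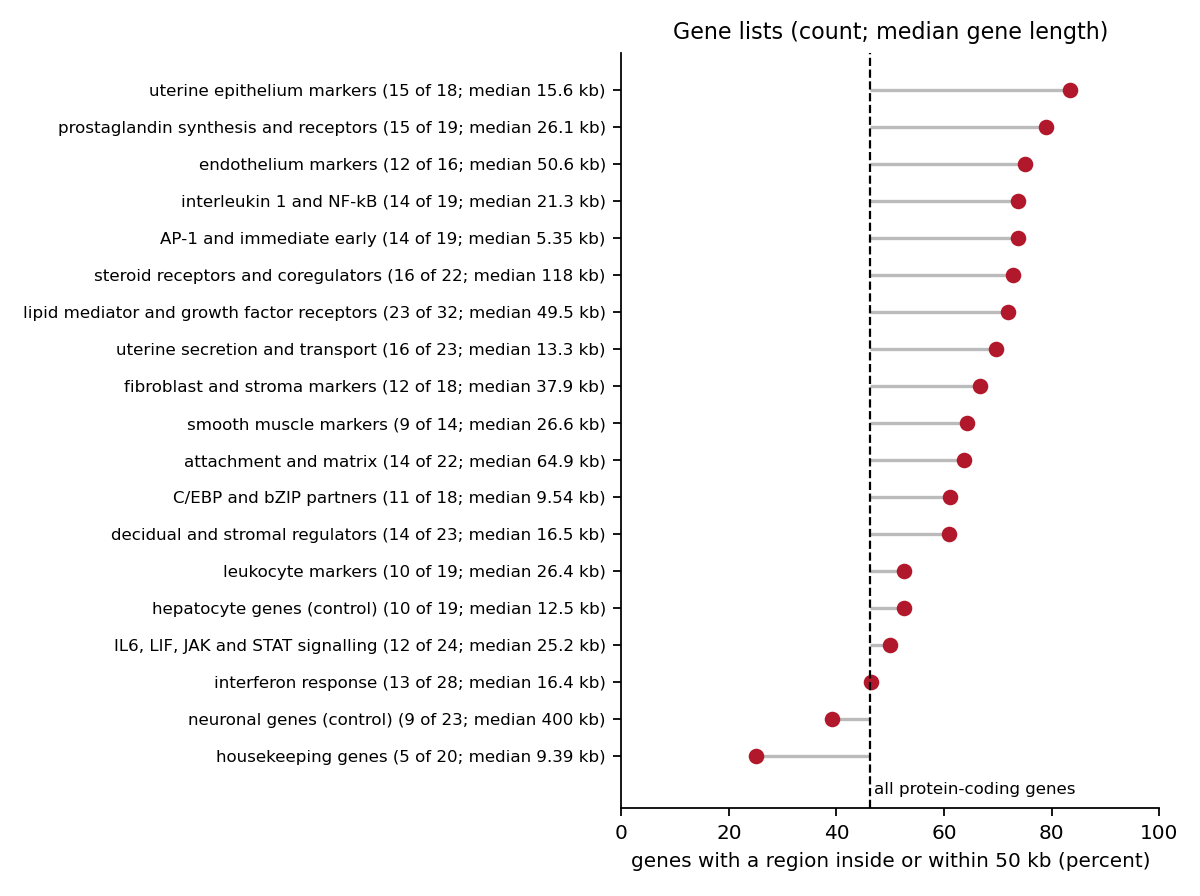
Percent of the genes of each list with a region of the set inside or within 50 kb (points, horizontal axis), with the count and the median gene length in the label. The dashed line is the 46.2% of all protein-coding genes, and the points run from 25% for housekeeping genes to 83.3% for uterine epithelium markers.

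Receptors of lipid mediators and growth factors had a region for 23 of 32 genes (71.9%, background 46.2%), with a median gene length of 49.5 kb. MET, the receptor of hepatocyte growth factor, had 8, of which 7 lay inside it, out of 33 distal regions. Its highest region (chromosome 18, 29499970 to 29500016) had scores of 16.1, 58.3 and 66.2 in day 12 replicates 2 and 3 and day 15 replicate 1. LPAR3 encodes the lysophosphatidic acid receptor of the uterine epithelium that takes part in embryo spacing, and it had 6 regions, 4 of them inside. The highest, at chromosome 6, 128926103 to 128926135, lay 11.7 kb from an end and scored 18.8, 43.9 and 96.8. EGFR and IGF1R, receptor kinases of the EGF and IGF families, had 5 each, and the highest of EGFR lay 21.5 kb outside the gene with scores of 13.1, 19.5 and 30.6. None of the distal regions in the windows of MET, LPAR3, EGFR and IGF1R was shared by all 6 libraries. Around the whole list the set made up 15.4% of the distal regions, against 14.5% over all gene windows.

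Prostaglandin genes had a region for 15 of 19 members (78.9%, background 46.2%). The set made up 16.6% of the distal regions around them, against 14.5% over all gene windows. PLA2G4A, the cytosolic phospholipase that releases arachidonic acid, had 7 regions and no library with a summit near its ends. The highest of these lay inside the gene (chromosome 9, 127944214 to 127944252, 90.7 kb from an end) and ranked at a mean percentile of 95.5, with scores of 24.9, 53.2 and 66.2. ABCC4, a transporter that exports prostaglandins, had 4, of which the highest scored 8.71, 27.9 and 31.5. PTGES, the inducible prostaglandin E synthase, had 4, of which 1 lay inside its 12.7 kb (chromosome 1, 269915858 to 269915896) with scores of 9.07, 10.0 and 19.5. HPGDS had 3, all outside the gene. PTGS2, the inducible cyclooxygenase gene, had 1 such region within 50 kb, and each of the 6 libraries listed a summit near its ends.

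Interleukin 1 and NF-kB genes had a region for 14 of 19 members (73.7%, background 46.2%). The set made up 19.8% of the distal regions in their windows, which numbered 192 when counted once for each gene. Over all gene windows the share was 14.5%. IL1R1, the signalling receptor, had 8 regions, of which 4 lay inside, and no library listed a summit near its ends. Its accessory chain IL1RAP had 7, of which 6 lay inside. The highest region of IL1R1 lay between that gene and IL1R2, the decoy receptor, at chromosome 3, 52349356 to 52349393. It scored 28.7, 37.3 and 6.25, and it ranked at percentiles of 95.6 and 94.7 in the day 12 libraries and at 40.1 in day 15 replicate 1. IL1RAP's highest region, 6.38 kb outside the gene, scored 17.2, 23.9 and 11.7. Its percentile was 64.1 in day 15 replicate 1, against 87.2 and 88.5 in the day 12 libraries. Members of the list differed in this, since the highest regions of IL33, NFKBIE and MYD88 ranked highest in day 15 replicate 1. Days were not compared. NFKBIA, the inhibitor IkB-alpha, had 4 regions to one side, in the cluster beside PSMA6, and the highest scored 14.0, 36.9 and 25.7. IL1B itself had 3 within 50 kb.

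Steroid receptors and their coregulators had a region for 16 of 22 genes (72.7%), and these genes are long, with a median of 118 kb. NCOA2, a p160 coactivator, had 8, all inside, and its highest (chromosome 4, 65026576 to 65026581) scored 22.7, 42.6 and 71.3. ESR1, the oestrogen receptor gene, had only 5 among the 72 distal regions of its window, and the highest (chromosome 1, 14324952 to 14325005) scored 12.1, 30.2 and 21.2. FOXO1, a forkhead factor of decidual stroma, had 4, with a highest region (chromosome 11, 15348703 to 15348742) that scored 28.3, 46.0 and 20.1, at percentiles of 95.3, 96.6 and 78.5. NCOA3 had 4. PGR, the progesterone receptor gene, had 2 and NR3C1, the glucocorticoid receptor gene, 3, both outside the rule for named genes and given for their role. Around this list the set made up 12.9% of the distal regions, below the 14.5% over all gene windows.

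Regulators of decidual and stromal cells had a region for 14 of 23 genes (60.9%). RUNX1 had 5, all inside, with no summit of any library at its ends, and its highest (chromosome 13, 198428415 to 198428440) scored 10.2, 18.7 and 63.3. TEAD1, a factor of the Hippo pathway, had 5 and GATA2, a partner of the progesterone receptor in the uterus, 4. The highest region of GATA2 lay 38.7 kb outside (chromosome 13, 72036323 to 72036345) and scored 18.7, 22.4 and 80.1. The set made up 11.2% of the distal regions around this list, below the 14.5% over all gene windows.

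Attachment and matrix genes had a region for 14 of 22 members (63.6%), with a median gene length of 64.9 kb. LAMA3, a laminin chain gene, had 4, and the highest scored 15.0, 26.8 and 76.3. ITGB6, an epithelial integrin chain, had 3 of its 8 distal regions in the set, all inside (highest at chromosome 15, 67116318 to 67116333, scores 18.8, 19.4 and 32.9). LGALS3, a galectin gene, had 3. Secretion and transport genes had a region for 16 of 23 members (69.6%). SLC5A1, the sodium-glucose cotransporter, had 6, SLC2A3, a glucose transporter, 4, and TRPV6, an epithelial calcium channel, 4. The highest region of TRPV6 lay 5.40 kb outside the gene (chromosome 18, 7326833 to 7326878) and scored 10.0, 61.4 and 28.3. CTSB, a lysosomal cathepsin gene, had 3. The set made up 16.2% of the distal regions around attachment and matrix genes and 15.6% around secretion and transport genes. Over all gene windows the share was 14.5%.

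Genes of the C/EBP family and their bZIP partners had a region for 11 of 18 members (61.1%), none of them with more than 3. HLF had 3, and BATF, CEBPD and DBP had 2 each. Around the list the set made up 12.7% of the distal regions. The highest region near CEBPD, 42.5 kb away at chromosome 4, 79916983 to 79916999, scored 9.57, 10.7 and 27.2. CEBPB had 1 region within 50 kb, and DDIT3 and CEBPG had none, while all 6 libraries had a summit at the ends of these 3 genes. Beyond that window, CEBPB was the nearest protein-coding gene to a cluster of 4 regions within 5.25 kb (chromosome 17, 51847725 to 51852971). AP-1 and immediate early genes, which are short (median 5.35 kb), had a region for 14 of 19 members (73.7%). FOSL2 had 5, DUSP1 4, FOS 3 and JUN 3, and the highest of FOSL2 (chromosome 3, 110858323 to 110858379) scored 20.5, 35.7 and 73.8. Around the AP-1 list the set made up 12.9% of the distal regions. The list also had many sites shared by all libraries. Of the 19 genes, 11 had a distal region of all 6 libraries within 50 kb (57.9%), against 12.1% of all genes. For 11 of the 19, each of the 6 libraries listed a summit within 2 kb of an end, against 9.76% of all genes. Those summits may lie in different regions or at different ends of a gene.

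The interferon list and the list of IL6, LIF, JAK and STAT signalling were near the background. Interferon response genes had a region for 13 of 28 members (46.4%), and genes of the other list for 12 of 24 (50%). Around the latter the set made up 9.81% of the distal regions, the lowest of the 19 lists, and around interferon genes 11.5%. STAT3, STAT5A and STAT5B are neighbours, and regions in their overlapping windows were counted for each of them. Both interferon receptor chains had regions, 5 for IFNAR2 and 3 for IFNAR1, and IRF2 had 5 and CIITA, the regulator of MHC class II genes, 3. The highest region of IRF2 scored 34.8, 33.5 and 26.9, at percentiles of 97.1, 93.5 and 84.2. LIF and OSM, neighbouring cytokine genes, shared 1 highest region at chromosome 14, 47199059 to 47199089 (17.2, 26.3 and 24.7). IL6ST and SOCS3 had none. PIAS1 had 3.

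Among markers of cell types that whole endometrium may hold, the share with a region ran from 52.6% (leukocytes) to 83.3% (epithelium). Uterine epithelium markers had one for 15 of 18 genes (83.3%), among them KRT19 with 4 and EPCAM, OCLN and TJP1 with 3 each. Around these markers the set made up 12.7% of the distal regions (28 of 221, counted for each gene), below the 14.5% over all gene windows. The highest region near EPCAM lay 34.5 kb away (chromosome 3, 93219662 to 93219683) and scored 8.71, 44.1 and 96.6. Fibroblast and stroma markers, with a median gene length of 37.9 kb, had one for 12 of 18 (66.7%). FBN1, the fibrillin gene, had 5, THY1 3 and COL3A1 and COL5A1 2 each. Smooth muscle markers had one for 9 of 14 (64.3%), with 9 inside CALD1 (caldesmon), 8 at KCNMA1, a potassium channel gene, and 4 each at ACTG2 and MYLK. The set made up 10.3% of the distal regions around stroma markers and 14.4% around smooth muscle markers.

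Endothelium markers had a region for 12 of 16 genes (75%), and leukocyte markers for 10 of 19 (52.6%), against 46.2% of all protein-coding genes. The median gene length of the endothelium markers was 50.6 kb. Around the endothelium and leukocyte markers the set made up 21.6% and 21.2% of the distal regions, from 24 of 111 and 14 of 66, counted once for each gene. Over all gene windows the share was 14.5%. ERG, PECAM1 and TIE1 had 4 each and TEK, the angiopoietin receptor, 3, the highest of them 6.48 kb inside an end (chromosome 1, 196045787 to 196045842, scores 9.24, 25.6 and 55.6). KIT had 3, GZMB and PTPRC 2 each and CD14 1. At the ends of 12 of the 16 endothelium markers (75%) and 14 of the 19 leukocyte markers (73.7%) none of the 6 libraries had a summit, against 38.8% of all genes. Which cells of the tissue gave the summits was not tested.

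The control lists gave mixed values. Housekeeping genes had a region for 5 of 20 members (25%), with 4 at YWHAZ and 3 at TFRC. For 8 of the 20 (40%, against 9.76% of all genes), each of the 6 libraries listed a summit near an end. Hepatocyte genes had a region for 10 of 19 (52.6%), all outside the gene bodies, with 2 near SERPINA1. Neuronal genes had one for 9 of 23 (39.1%), although their median length of 400 kb gives wide windows. DLGAP1, a synaptic scaffold gene, held 11 regions and had 14 in its window, CSMD1 had 9, DLG2 8 and NRXN3 4. Of the 9 neuronal genes with a region, 7 had no summit of any library at their ends. The highest region of CSMD1 (chromosome 15, 34464247 to 34464311) scored 10.1, 26.2 and 62.5. The set made up 13.7% of the distal regions around housekeeping genes, 12.6% around hepatocyte genes and 12.7% around neuronal genes.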

How the data were processed

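Chromatin immunoprecipitation and sequencing with a C/EBP-β antibody was analysed in 6 libraries of pig endometrium, 3 per day. The submitters' processing notes name MACS2 2.1.2, SAMtools 1.9, Bowtie2 2.3.5.1 and build susScr11. Threshold, use of input, duplicate removal and pooling were not given in these sources. The authors deposited summits 1 bp wide with a −log10 score. Whether it stems from a p-value or a q-value is not stated, and depth is unknown.

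Summits on the 18 autosomes and X were joined within 200 bp (single linkage), with coordinates counted from 1. Gene ends were those of RefSeq for Sscrofa11.1 (susScr11), with 19484 protein-coding genes on these chromosomes. The sequences of the regions were not used here. Of 408 entries in 19 gene lists, 396 matched by symbol or synonym. The analysis ran in Python 3.11.15 with pandas 2.3.3 and SciPy 1.17.1 and was tested on simulated lists. No significance test was made. The members and lists were chosen with earlier results of these data known.

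Named were the 10 highest regions by mean percentile, the 10 genes holding most regions, up to 4 genes per list with most regions, the 5 largest clusters, the 5 farthest regions and those at the 2 kb limit. Alternatives were other joining distances, score limits, equal lists, distance limits, gene ends of any kind, gene windows, chaining distances and each library left out. A few genes that this rule names are not reported here.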

Additional observations from a re-analysis of the deposited data

Results flagged for a closer look

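Outside the chromosomes used, 104 of 1196 regions on chromosome Y and unplaced sequences (8.70%) had a summit in the same 3 libraries and in none of the others, 8 of them on Y. They are listed because these sequences enter no comparison above. The share was below the 12.8% of all regions on the chromosomes used, near gene ends and distal together.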

How the results depend on the processing

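No paired analysis was possible because the results come from no test. The number of regions was 7364 with a score of at least 5, 4041 with at least 10 and 503 with equal lists, and 11671 to 20923 with 1 library left out, the highest without day 12 replicate 2. Their share of the distal regions was 12.5% when joined within 100 bp, 15.5% within 500 bp and 16.5% within 1000 bp. It was 13.8% and 13.5% with scores of at least 5 and 10, 4.28% with equal lists, and 14.9% to 27.7% with 1 library left out. The share inside genes was 54.7% with scores of at least 10, 51.7% with equal lists and 55.4% to 56.5% with 1 library left out. The median distance to a gene end was 26.9, 36.4 and 45.3 kb with limits of 1, 5 and 10 kb, and 29.6 to 31.1 kb with 1 library left out. The median over regions of the mean percentile was 61.0, against 62.7 and 60.5 when joined within 100 and 500 bp, 62.1, 73.3 and 86.4 with scores of at least 2, 5 and 10, 92.7 with equal lists and 55.3 to 63.2 with 1 library left out. The median over regions of the mean offset was 33.3 bp, against 30.0, 34.7 and 36.0 bp when joined within 100, 500 and 1000 bp, 28.0 and 23.3 bp with scores of at least 5 and 10, 20.7 bp with equal lists and 29.0 to 33.3 bp with 1 library left out. Genes with a region within 50 kb were 44.6% when joined within 100 bp, 45.4%, 35.5% and 23.3% with scores of at least 2, 5 and 10, and 3.77% with equal lists. They were 49.9%, 38.4% and 28.7% with limits of 1, 5 and 10 kb, 45.0% with ends of genes of any kind, 17.9% for the gene body alone, 24.1% with 10 kb either side and 47.2% to 62.8% with 1 library left out. Clusters numbered 76 and 27 with scores of at least 5 and 10, 0 with equal lists, 91 and 601 when chained within 5 and 25 kb, and 226 to 771 with 1 library left out. Without both libraries whose names lack the protein, an alternative chosen after seeing the data, the share of distal regions was 16.7%, the percentile 63.5, the offset 32.0 bp and the genes 50.7%. Counts of regions inside the genes holding most regions moved beyond a fixed ratio in 28 comparisons with an alternative, and not in 152. Counts of list members with a region moved so in 42 comparisons, and not in 300. The causes were not tested, except that higher scores and equal lists leave fewer summits.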

Other observations

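Ranked by density instead of number, a choice made after the values were seen, N4BP1 led among genes holding at least 5 regions, ahead of ARID5B. N4BP1, which encodes a regulator of innate immune signalling, had 6 regions in 55.8 kb (10.8 per 100 kb, against 0.564 over all gene bodies). ADCY7, an adenylyl cyclase gene, had 5 in 64.9 kb, and these were 5 of its 6 distal regions. LGR4, the R-spondin receptor gene, held 8 in 107 kb, the highest of which (chromosome 2, 32942685 to 32942697) scored 19.6, 54.5 and 52.8 in day 12 replicates 2 and 3 and day 15 replicate 1. PXK held 6 in 81.2 kb, with a highest region at chromosome 13, 40147676 to 40147690 (27.2, 51.9 and 100.1). RNF144B, a ubiquitin ligase gene, held 11 of its 21 distal regions in the set, with no summit of any library at its ends. Over all distal regions the share in the set was 14.4%. These genes were picked for a high density of the set, so a high share follows in part from that choice.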
